A study of Mus musculus with 6 samples.

Results

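Syndecans and glypicans are the cell-surface families of heparan sulfate proteoglycans, and 8 of their genes were followed here in cultured mouse muscle stem cells treated with the lipid mediator 11,12-EET: the syndecans Sdc1, Sdc2, Sdc3 and Sdc4 and the glypicans Gpc1, Gpc3, Gpc4 and Gpc6. They were taken by symbol from a table of 55494 gene rows, and all 8 were among the 16097 genes with enough counts to be tested. In the cultures given 11,12-EET, Sdc3 (−24.3%), Gpc4 (−21.1%) and Gpc6 (−55.4%) were lower and Sdc4 (14.5%) was higher, whereas Sdc1, Sdc2, Gpc1 and Gpc3 did not pass the test. After the dependence of each library on mRNA length and GC content was removed, Gpc4 and Gpc6 were still lower and Sdc3 and Sdc4 were no longer called, Sdc3 by a narrow margin that turned with the settings.

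A syndecan has a core protein that crosses the membrane, with heparan sulfate chains outside and a short tail inside that binds cytoskeletal and PDZ proteins. A glypican is held on the outer leaflet by a glycosylphosphatidylinositol anchor, carries its chains close to the membrane and has no cytoplasmic tail. The sulfated sugar chains bind growth factors such as FGF, HGF and Wnt proteins and matrix proteins such as fibronectin, and present them to their receptors. In adult muscle Sdc3 and Sdc4 are used as surface markers of the satellite cell, the stem cell of the fibre.

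The study holds 6 poly(A) RNA libraries of primary muscle stem cells from mice of wildtype genotype, cultured for 2 days: 3 control libraries without and 3 with 11,12-EET, an epoxide of arachidonic acid. Dose, vehicle, age and sex of the mice are not stated in the labels. Whether the 3 libraries of a group stem from different mice or dishes is not stated either, and p-values measure only the spread among these libraries, which may be technical. Library totals ran from 30371291 to 37243882 counts. The stem cell and myoblast genes Pax7 (109 to 118 CPM in controls, 81.9 to 85.2 CPM with EET), Myod1 (944 to 1025 and 1148 to 1175 CPM) and Itga7 (921 to 1006 and 860 to 913 CPM) were present in every library. CPM stands for counts scaled by library size and TMM factor, and "higher" or "lower" is used where the Benjamini-Hochberg adjusted p lay under 0.05 in the edgeR quasi-likelihood test of 3 against 3 libraries.

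The members lie on 7 chromosomes (GRCm38, GENCODE M21). Sdc1 is on chromosome 12 (8771323 to 8793715, plus strand), Sdc2 on chromosome 15 (32920723 to 33034935, plus), Sdc3 on chromosome 4 (130792537 to 130826319, plus) and Sdc4 on chromosome 2 (164424247 to 164443887, minus). Gpc1 is on chromosome 1 (92831645 to 92860779, plus) and Gpc6 on chromosome 14 (116925315 to 117976544, plus), downstream of its relative Gpc5 (115092215 to 116525179, plus). Gpc4 (52053021 to 52165252) and Gpc3 (52272426 to 52613950) follow each other on the minus strand of chromosome X. The genes differ widely in span, from 19.6 kb for Sdc4 to 1051 kb for Gpc6, while their longest coding mRNAs run from 2216 bp (Gpc3) to 4973 bp (Sdc3).

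RefSeq upstream sequence (GRCm38.p6) was at hand for Sdc1, Sdc3, Sdc4, Gpc3 and Gpc4. Those of Sdc3 and Sdc4, the syndecans whose mRNA moved apart, are shown here as the 250 bases before the RefSeq start of each gene, 5′ to 3′ on the strand of the gene, with matches to the GC box (GGGCGG, either strand) and the E-box (CANNTG) in capitals. They lie at chr4:130792287-130792536 (plus strand) and chr2:164443189-164443438 (minus strand). RefSeq and GENCODE place some starts differently: the Sdc4 and Gpc4 stretches lie within, and the Sdc1 stretch partly within, the GENCODE gene bounds given above, so these are upstream of the RefSeq start only.
Sdc3: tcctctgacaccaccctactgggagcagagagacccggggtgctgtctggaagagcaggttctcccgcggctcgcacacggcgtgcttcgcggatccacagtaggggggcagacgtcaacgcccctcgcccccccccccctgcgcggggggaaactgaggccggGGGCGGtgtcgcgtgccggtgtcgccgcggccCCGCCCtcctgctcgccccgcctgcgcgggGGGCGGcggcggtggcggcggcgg
Sdc4: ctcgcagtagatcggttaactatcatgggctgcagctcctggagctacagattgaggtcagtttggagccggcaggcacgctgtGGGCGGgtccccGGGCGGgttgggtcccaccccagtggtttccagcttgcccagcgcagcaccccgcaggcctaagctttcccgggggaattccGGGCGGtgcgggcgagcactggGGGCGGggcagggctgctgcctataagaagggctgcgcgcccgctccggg
The Sdc3 stretch is 76.4% G or C and holds 3 GC boxes, and the Sdc4 stretch is 68% G or C and holds 4. Neither holds an E-box, a TATAAA or an AP-1 match (TGANTCA) on either strand. Among 32851 RefSeq upstream stretches of the same length, 32.7% hold a GC box, 66.2% an E-box, 12.4% a TATAAA and 6.75% an AP-1 match, and the median GC content is 52.4%. GC boxes were also found in the stretches of Sdc1 (3), Gpc3 (3) and Gpc4 (1), and the only E-box among these 5 stretches is in that of Sdc1. These are descriptions of letters; binding was not measured.

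The syndecans were the more abundant family. Per kb of mRNA, which allows levels of different genes to be compared, Sdc4 led in controls at 152 ± 6.02 CPM per kb (mean ± SD, n = 3), followed by Gpc1 at 89 ± 1.02, Sdc3 at 70.5 ± 3.46, Sdc1 at 53.9 ± 3.46, Gpc4 at 46.6 ± 0.893 and Sdc2 at 25.4 ± 0.503 CPM per kb. Gpc3 (4.15 ± 0.514 CPM per kb) and Gpc6 (2.88 ± 0.629 CPM per kb) were far below the others. No neighbours in this order overlapped among the control libraries. The order rests on the longest coding mRNA and depends on that choice. Median coding lengths are 659 bp for Sdc3 (longest 4973 bp) and 2311 bp for Sdc1 (longest 3157 bp). With EET the order was the same, but Sdc3 (49.8 to 58.2 CPM per kb) came to overlap Sdc1 (52.6 to 53.3 CPM per kb). The remaining glypicans of the mouse, which are not among the 8, were hardly detected. Gpc2 had 0.638 ± 0.112 CPM in controls against 0.756 ± 0.28 CPM in EET libraries (adjusted p = 0.67), and Gpc5 had 11, 6 and 6 counts in the controls and 0, 4 and 0 with EET, too few to be tested.

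**Figure D1:**
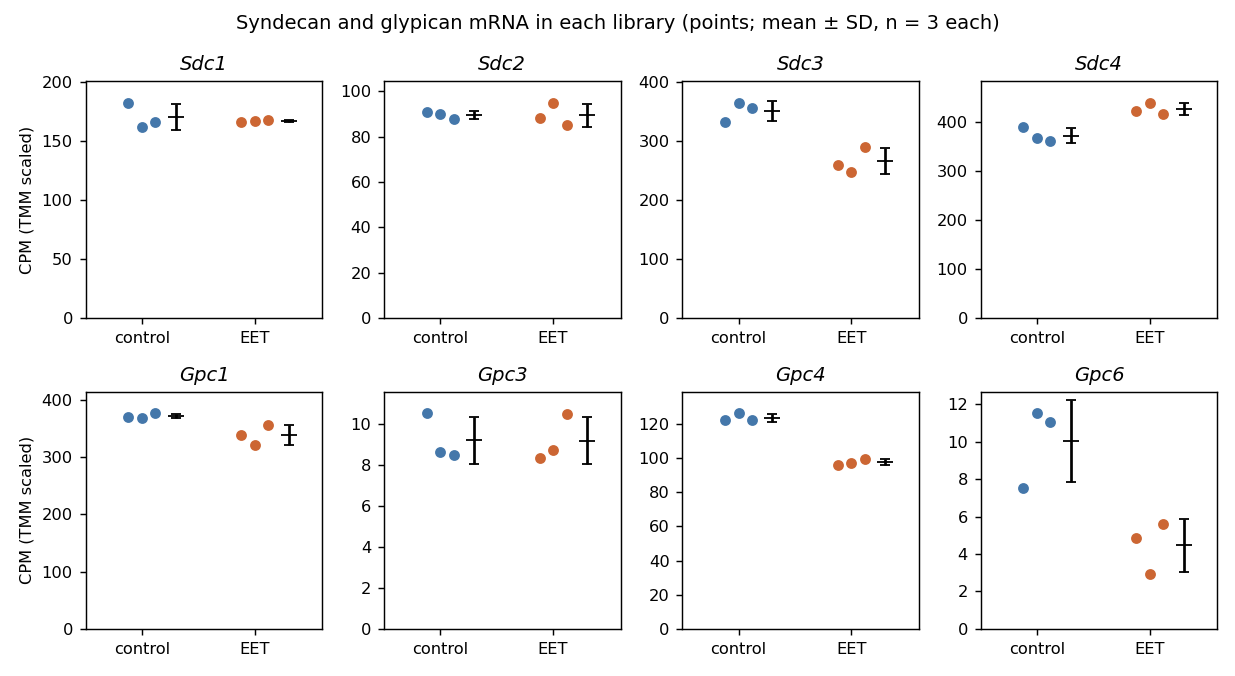
Level of each syndecan and glypican mRNA in CPM (scaled by library size and TMM factor, linear axes from 0), with 1 point per library and the mean ± SD of 3 libraries beside the points. The EET libraries lie below all controls for Sdc3, Gpc1, Gpc4 and Gpc6 and above all controls for Sdc4.

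Of the 8 members 1 was higher and 3 were lower, against a background of 24.6% of all tested genes higher and 23.3% lower in this comparison. The groups did not overlap for 5 members, 1 of them with EET above and 4 with EET below, where 29.6% of all tested genes lay wholly above and 28% wholly below. Calls in either direction were common among all genes, so these counts alone set nothing apart about the families.

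Among the syndecans, Sdc4 and Sdc3 moved in opposite directions. Sdc4, which binds protein kinase C alpha and takes part in focal adhesions with integrins, was at 389, 368 and 361 CPM in the controls and at 422, 440 and 418 CPM with EET. Every EET library was above every control, by a log2 fold change of 0.19 ± 0.06 (standard error; adjusted p = 0.0199). It did not pass when control replicate 2 (adjusted p = 0.0954), control replicate 3 (adjusted p = 0.0988) or EET replicate 2 (adjusted p = 0.091) was left out, nor with library totals as the scaling (0.13, adjusted p = 0.125).

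Sdc3, the longest syndecan core protein and a regulator of Notch and FGF signalling in satellite cells, was at 331, 365 and 355 CPM in the controls and at 259, 248 and 289 CPM with EET. The groups did not overlap, and the log2 fold change was −0.40 ± 0.07 (adjusted p = 0.000352), called in each fit that left out 1 library. The antisense gene models that overlap its exons, Gm12970 and Gm26716, held at most 2 counts in any library; reads of the opposite strand within shared exons were not measured. The log2 ratio of Sdc4 to Sdc3 counts per library was 0.23, 0.01 and 0.02 in the controls and 0.71, 0.83 and 0.53 with EET. The shift was 0.60 with no overlap. Since every EET library was above the controls for Sdc4 and below them for Sdc3, this separation was given in advance. The exact two-sided permutation p of 0.1, the smallest that 3 against 3 libraries can give, therefore adds no support. Other ratios of members were computed too, without adjustment. The ratio carries no correction for mRNA length. With the length and GC trend removed, Sdc4 (0.05) and Sdc3 (−0.12) were not called.

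Sdc1, the syndecan best known from epithelia and plasma cells, and Sdc2, which is common in mesenchymal cells, showed no difference that passed the test. Sdc1 was at 183, 162 and 166 CPM in the controls and at 166, 167 and 168 CPM in the EET libraries, so the EET values lay within the control range. Its log2 fold change was −0.03, with a 95% interval of −0.17 to 0.12. Sdc2 was at 91, 89.9 and 87.5 CPM in the controls and at 88, 95 and 85.1 CPM in the EET libraries, with groups that overlapped. Its interval of −0.15 to 0.15 leaves room for changes of that size in either direction.

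Among the glypicans, Gpc4 gave the most even values. Gpc4, a glypican that binds FGF and Wnt ligands, was at 122, 126 and 122 CPM in the controls and at 95.9, 97.2 and 99.4 CPM with EET, so that the groups were well apart and narrow. The log2 fold change was −0.34 ± 0.06 (adjusted p = 0.000439). Gpc6, known in humans for its role in bone growth, was weakly expressed, with 286, 430 and 348 counts in the controls and 170, 91 and 181 counts with EET. In CPM these were 7.51, 11.5 and 11.1 in the controls and 4.85, 2.91 and 5.62 with EET. All EET libraries were below all controls, and the log2 fold change of −1.17 ± 0.22 (adjusted p = 0.000635) was the largest among the 8. Its 95% interval of −1.65 to −0.68 shows how imprecise that size is at such low counts.

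Gpc1, the most abundant glypican here and a co-receptor for FGF, was at 371, 368 and 376 CPM in the controls and at 338, 321 and 356 CPM with EET. The groups did not overlap, yet the log2 fold change of −0.14 ± 0.06 did not pass (adjusted p = 0.0992). It did pass without EET replicate 3 (−0.17, adjusted p = 0.0323), with library totals as the scaling (−0.20, adjusted p = 0.0213) and with the replicate number as a block (−0.14, adjusted p = 0.0367). Gpc3, the neighbour of Gpc4 on chromosome X and a growth regulator of the embryo that is lost in an overgrowth syndrome in humans, was at 10.5, 8.63 and 8.46 CPM in the controls and at 8.33, 8.7 and 10.5 CPM in the EET libraries. The groups overlapped almost fully, with a log2 fold change of −0.01 and an interval of −0.31 to 0.30. The log2 ratio of Gpc3 to Gpc4 was higher in each EET library (−3.53, −3.48 and −3.24) than in each control (−3.54, −3.87 and −3.85), although EET replicate 1 lay next to control replicate 1. The mean shift of 0.34 restates the fall of Gpc4 (−0.34), since Gpc3 was level. The exact permutation p of 0.1, the smallest possible, adds no support beyond the value of Gpc4. This ratio was among several computed without adjustment.

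In these libraries the fold change of a gene went with the length of its mRNA, and this bears on each member. The deviation of a library from the mean of all 6 changed by 0.12 to 0.24 log2 units per doubling of mRNA length in the controls and by −0.27 to −0.11 in the EET libraries. Among 1491 coding genes with mRNAs of 2000 to 2500 bp, the length class of Sdc4 and Gpc3, the median log2 fold change was 0.23 and 38.9% were higher. Among 1429 genes of 4500 to 5500 bp, the class of Sdc3, the median was −0.31 and 52.2% were lower. The values of Sdc4 (0.19) and Sdc3 (−0.40) were thus near the medians of their length classes. That of Gpc3 (−0.01) was below the median of its class, and Gpc3 was not called with or without the length correction. Gpc4 fell in a class (2500 to 3000 bp, 1528 genes) whose median was 0.09 and in which 7.2% were lower, and Gpc6 in a class (3000 to 3500 bp, 1405 genes) whose median was −0.02 and in which 15.4% were lower.

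**Figure D2:**
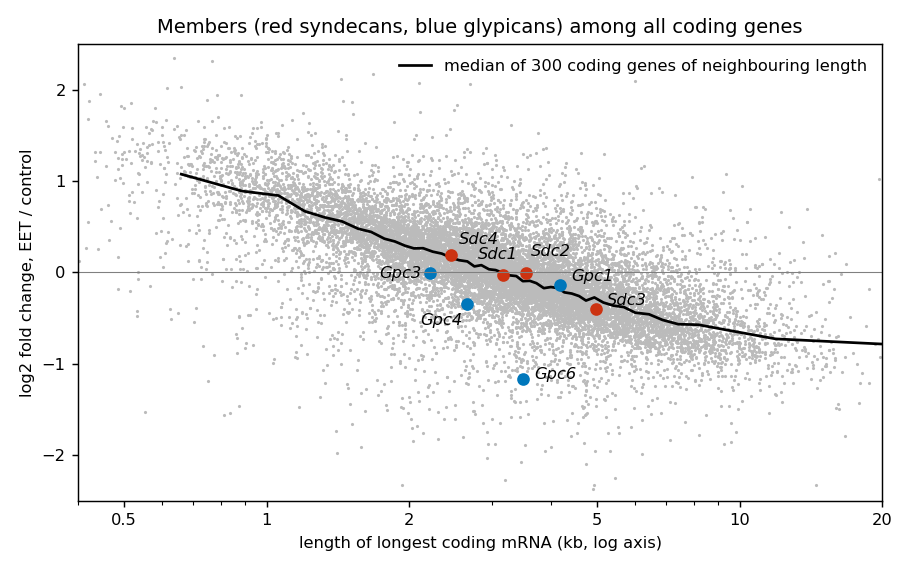
Log2 fold change with EET of all tested coding genes (grey) against the length of the longest coding mRNA in kb (log axis), with syndecans in red and glypicans in blue; the black line joins medians of 300 genes of neighbouring length. Sdc1, Sdc2, Sdc3, Sdc4 and Gpc1 lie near the line, while Gpc3 (−0.01), Gpc4 (−0.34) and Gpc6 (−1.17) lie below it.

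When the trend of each library with length and GC content was removed before the test, 0 members were higher and 2 were lower, where 15.2% of all tested genes were higher and 17.1% lower. This fit measures a gene against mRNAs of similar length and composition. Gpc4 had −0.44 ± 0.05 (adjusted p = 1.44e-06) and Gpc6 −1.08 ± 0.23 (adjusted p = 0.00332). Sdc3 had −0.12 ± 0.05 (adjusted p = 0.0595), just outside the threshold, and with a smoother of degree 1 in place of 2 it was just inside it (−0.12, adjusted p = 0.0497), as it was with the replicate number as a block in the corrected fit (−0.12, adjusted p = 0.0367). Sdc4 had 0.05 ± 0.04 (adjusted p = 0.399). Gpc1 turned to 0.03 and Sdc2 to 0.04, and Sdc1 (−0.02) and Gpc3 (−0.21, adjusted p = 0.25) stayed below 0, all 4 uncalled.

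**Figure D3:**
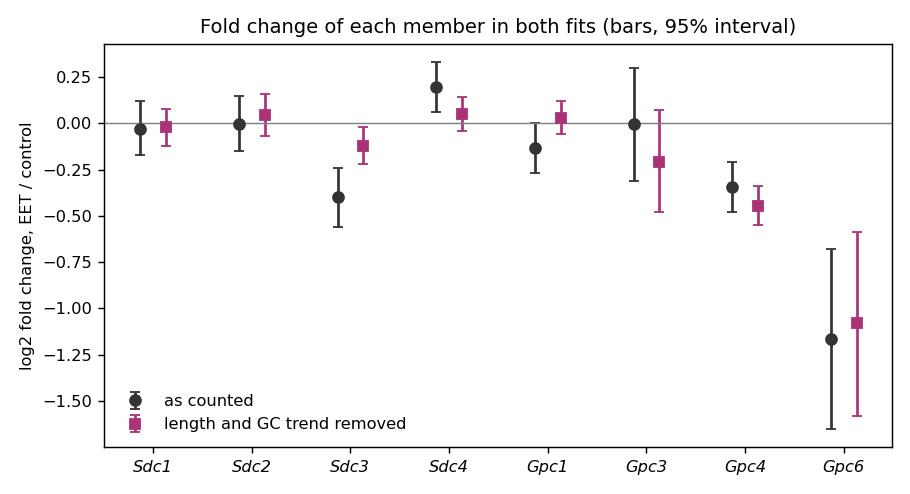
Log2 fold change of each member with EET, as counted (circles) and after removal of each library's length and GC trend (squares), with 95% intervals from the fits of 3 against 3 libraries. The intervals of Gpc4, Gpc6 and Sdc3 stay below 0 in both fits. Sdc3 moves from −0.40 to −0.12, however, and is not called in the corrected fit (adjusted p = 0.0595). Sdc4 moves from 0.19 to 0.05, and its interval then includes 0.

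The make-up of each family, taken from counts as deposited, differed between the groups. Shares and sums carry no correction for the length trend, under which Sdc4, Sdc3 and Gpc1 were not called (0.05, −0.12 and 0.03). As shares of syndecan counts per kb of longest coding mRNA, Sdc4 made up 50.3 ± 0.891% in controls and 56.9 ± 1.21% with EET (n = 3 each), and Sdc3 23.4 ± 1.58% and 17.5 ± 1.48%. The sizes of these shares depend on that choice of length, as the median coding length of Sdc3 is only 659 bp. The shares of Sdc4 and Sdc3 both separated the groups fully (exact permutation p = 0.1, the smallest possible). Sdc4 lay above and Sdc3 below all controls while the summed level overlapped, so this was largely given by the same values and adds no support. Sdc1 made up 17.9 ± 0.815% and 17.3 ± 0.172%, and Sdc2 8.42 ± 0.0747% and 8.3 ± 0.41%, with overlap in each case (exact permutation p = 0.4 and 0.7). The summed syndecan level was 301 ± 6.6 CPM per kb in controls and 305 ± 3.67 CPM per kb with EET, and overlapped (exact permutation p = 0.4).

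Summed glypican mRNA, which was not part of the edgeR test, lay below all controls in every EET library. Its level was 143 ± 0.775 CPM per kb in controls and 123 ± 5.43 CPM per kb with EET. Gpc1, Gpc4 and Gpc6, which make up nearly all of the sum, each lay below all controls, so this separation was given in advance. The exact permutation p of 0.1, the smallest possible, therefore adds no support. Of these 3 genes, Gpc1 was not called in the edgeR test (adjusted p = 0.0992). Gpc1 took 62.4 ± 0.672% of the sum in controls and 65.7 ± 0.656% with EET, Gpc4 32.7 ± 0.584% and 29.9 ± 1%, and Gpc6 2.02 ± 0.431% and 1.03 ± 0.287%, each with groups fully apart (exact permutation p = 0.1). The larger share of Gpc1 is no gain in its level, which was 89 ± 1.02 CPM per kb in controls and 81 ± 4.16 CPM per kb with EET. The share of Gpc3, 2.91 ± 0.378% and 3.35 ± 0.3%, overlapped (exact permutation p = 0.3). The 8 shares were tested without adjustment, and those within a family are not independent, since they add up to the whole.

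**Figure D4:**
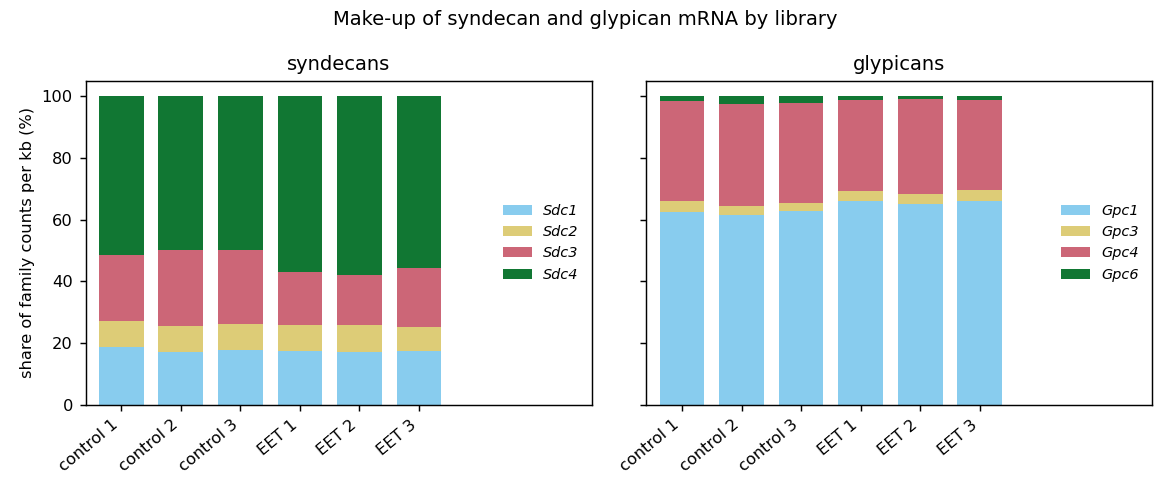
Share of each gene in the summed counts per kb of its family, as stacked bars that add up to 100%, for each of the 6 libraries. In the EET libraries Sdc4 takes 55.6 to 58% of syndecan mRNA against 49.7 to 51.3% in controls, and Gpc1 takes 65 to 66.2% of glypican mRNA against 61.6 to 62.9%. The level of Gpc1 itself lies below all controls in each EET library.

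Markers of other cells also differed between the groups; 24.6% of all tested genes were higher and 23.3% lower. Of 8 endothelial markers 6 were lower and 0 higher, with a summed level of 285 to 299 CPM in controls and 164 to 183 CPM with EET. Of 7 Schwann cell markers 6 were lower and 1 higher (435 to 452 and 315 to 352 CPM), of 8 pericyte and smooth muscle markers 5 were lower and 2 higher (384 to 402 and 340 to 364 CPM), and of 8 fibro-adipogenic markers 2 were lower and 0 higher (372 to 376 and 340 to 354 CPM). Macrophage and leukocyte markers overlapped (310 to 340 and 199 to 384 CPM), with 2 of 8 lower and 0 higher, as did the 8 muscle stem cell markers (2566 to 2725 and 2669 to 2764 CPM), with 2 higher and 2 lower. No marker was at 0 in all libraries, although 2 of 8 markers of differentiated muscle, Mymk and Mymx, stayed under 1 CPM. Of the 7 of them tested 6 were higher and 0 lower, and the sum of all 8 was 36.6 to 48.6 CPM in controls and 62.6 to 73.2 CPM with EET. With the length and GC trend removed the markers called lower were 7 endothelial, 5 Schwann, 3 pericyte and smooth muscle, 3 fibro-adipogenic, 4 macrophage and leukocyte and 1 muscle stem cell marker, and those called higher were 3 of differentiated muscle and 1 of macrophages and leukocytes. The part of these cells in the values of Gpc4, Gpc6, Sdc3 and Sdc4 was not tested, and in bulk RNA fewer cells of a type and less RNA per cell cannot be told apart.

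The enzymes that build, modify and trim heparan sulfate, and the proteins that bind it, were described in 6 lists of 86 genes in all, of which 74 were tested, 11 were higher and 43 lower. In the fit corrected for length and GC content, 9 of them were higher and 19 lower. Among all genes tested 24.6% were higher and 23.3% lower as counted, and 15.2% and 17.1% in the corrected fit, and the counts of each list are to be read against these shares. In the list of chain initiation and polymerisation, 3 of 12 were higher and 4 lower, with a median log2 fold change of 0.01, the same as the 0.01 of all genes tested. The 3 that rose build the linker between core protein and chain: B3gat3, which adds its glucuronic acid, rose from 22.3 ± 1.19 to 38.3 ± 3.46 CPM (log2 fold change 0.78 ± 0.09), and the galactosyltransferases B4galt7 and B3galt6 had 0.40 ± 0.10 and 0.37 ± 0.11. B3galt6 did not pass when control replicate 2 (adjusted p = 0.0892) or EET replicate 2 (adjusted p = 0.0748) was left out. Xylt1, which puts the first xylose on the core protein, fell from 28.9 ± 4.81 to 14.5 ± 1.25 CPM (−0.99 ± 0.12), and Extl3, which starts the heparan sulfate chain, and Fam20b, the xylose kinase, had −0.48 ± 0.08 and −0.37 ± 0.08. With the trend removed B3gat3 (0.25), B3galt6 (0.39) and Xylt1 (−0.36) were still called and the other 3 were not.

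Genes of sulfation and epimerisation moved both ways. Of 15 tested members of 21, 3 were higher and 8 lower, with a median of −0.28. The 3 higher ones supply substrates: Slc35b2 and Slc35b3 carry the sulfate donor into the Golgi (0.58 ± 0.08 and 0.44 ± 0.11), and Ugdh makes UDP-glucuronic acid (0.16 ± 0.06, adjusted p = 0.0496). Of the enzymes that act on the chain, the epimerase Glce fell from 76.8 ± 4.64 to 51.1 ± 5.22 CPM (−0.59 ± 0.09), the N-sulfotransferase Ndst1 had −0.57 ± 0.09 and the sulfotransferase Hs6st2 −0.35 ± 0.08. Papss2, which makes the sulfate donor and is named after its value was seen, was also lower (−0.59 ± 0.15). The corrected fit called 2 members higher and 2 lower (median −0.14), with Slc35b2 (0.33) and Glce (−0.31) called in the same direction as before. Slc35b3 (0.27, adjusted p = 0.0555), Ugdh (0.03, adjusted p = 0.571), Ndst1 (−0.10, adjusted p = 0.231) and Hs6st2 (−0.14, adjusted p = 0.0763) were not called there, and Papss2 was (−0.49, adjusted p = 0.00804). As counted, Ugdh did not pass when any library other than control replicate 1 was left out (adjusted p from 0.0622 to 0.186), nor under RLE scaling (adjusted p = 0.0686).

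Genes that trim chains or shed core proteins were lower as counted in 7 of 8 tested cases, with 0 higher and a median of −0.41, and in 6 of 8 in the corrected fit (median −0.26), where 23.3% and 17.1% of all genes were lower. Sulf1 and Sulf2, the sulfatases that remove sulfate groups from chains outside the cell, fell from 39.2 ± 3.43 to 25 ± 3.01 CPM (−0.65 ± 0.10) and from 37.7 ± 1.31 to 26.3 ± 1.12 CPM (−0.52 ± 0.08). Adam10, a membrane protease that sheds ectodomains, fell from 147 ± 13.3 to 101 ± 11.4 CPM (−0.54 ± 0.09). These 3 were still called with the trend removed, at −0.26, −0.27 and −0.31. The other genes called lower as counted, named after their values were seen, were the sheddase Adam17 and the matrix metalloproteases Mmp2, Mmp9 and Mmp14. Hpse, the gene of heparanase, also named after its value was seen, was tested and not called as counted. Its relative Hpse2 had 0 counts in every library.

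**Figure D5:**
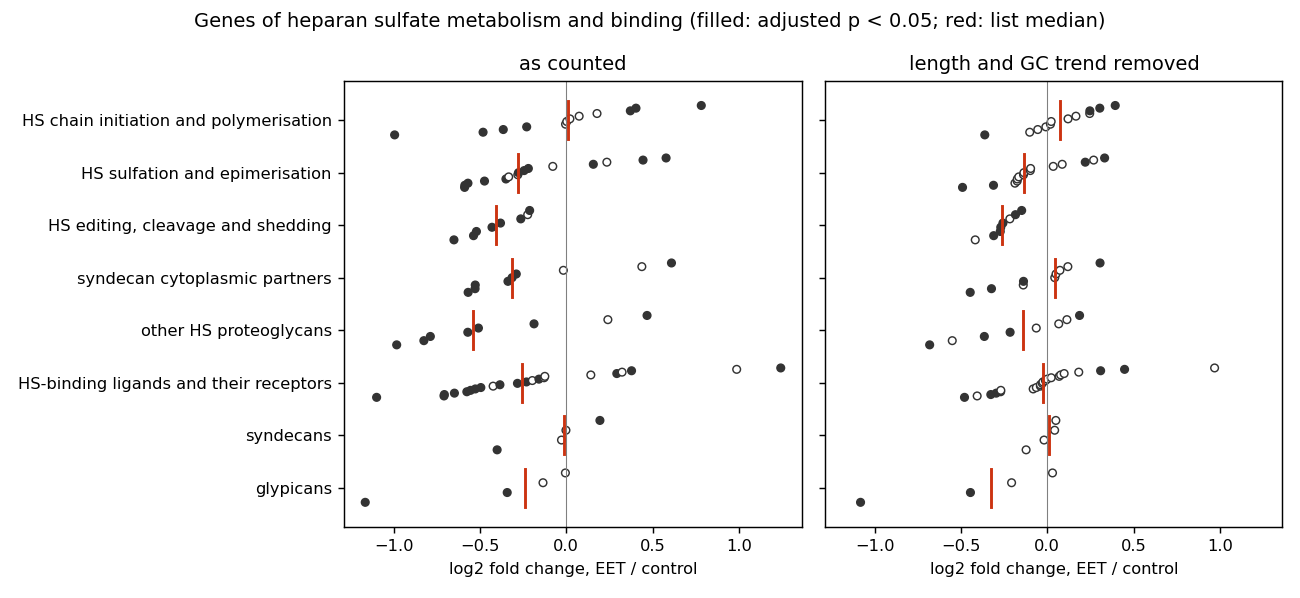
Log2 fold change with EET of the tested genes in 6 lists around heparan sulfate (HS) and in the 2 families, as counted (left) and after removal of the length and GC trend (right); each point is a gene, filled where the adjusted p is under 0.05, and the red bar is the list median. The editing, cleavage and shedding list has a median of −0.41 as counted and −0.26 in the corrected fit, and no called member above 0 in either fit.

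Partners of the syndecan tail and other proteoglycans had medians below 0 as counted, nearer to 0 in the corrected fit. Of 9 cytoplasmic partners 1 was higher and 6 lower (median −0.31), and 1 and 3 with the trend removed (median 0.04), against 23.3% and 17.1% of all genes lower. Actn1, the alpha-actinin that links syndecan-4 to actin, fell from 543 ± 21.4 to 366 ± 32.4 CPM (−0.57 ± 0.07, or −0.45 with the trend removed). Gipc1, a PDZ adaptor of syndecan-4, had 0.61 ± 0.08, Prkca, the kinase that its tail activates, −0.53 ± 0.10 and the Rac activator Tiam1 −0.53 ± 0.11. None of these 3 was called with the trend removed (0.05, 0.07 and 0.04), and Prkca and Tiam1 changed sign. Among 8 tested other proteoglycans 1 was higher and 6 lower (median −0.54), and 1 and 3 with the trend removed (median −0.14). Hspg2, the gene of perlecan, fell from 826 ± 105 to 418 ± 49.2 CPM (−0.98 ± 0.10), Agrn, that of agrin, had −0.57 ± 0.07, and Nrp1, a VEGF and semaphorin co-receptor that can carry such chains, −0.79 ± 0.09. Srgn, the gene of the granule proteoglycan serglycin, had 0.47 ± 0.11. With the trend removed Nrp1 was called at −0.68 and Agrn (−0.06) and Srgn (0.07) were not. Hspg2 has an mRNA of 14187 bp, and its corrected value depended on the smoother (−0.55, adjusted p = 0.0705, or −0.22 and called with degree 1).

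Of 22 tested ligands of heparan sulfate and their receptors, out of 25, 3 were higher and 12 lower (median −0.26), and 2 and 4 with the trend removed (median −0.03), which is near the shares of all genes in that fit (15.2% higher and 17.1% lower). Fgfr4, an FGF receptor of myoblasts, rose from 90.3 ± 3.15 to 111 ± 1.66 CPM (0.29 ± 0.07), and its value was 0.31 with the trend removed. Mdk, which encodes the heparin-binding growth factor midkine, rose from 3.81 ± 0.574 to 9.03 ± 1.51 CPM (1.24 ± 0.17, or 0.45 with the trend removed), and Pdgfa had 0.38 ± 0.08 (0.10, not called). Of the matrix proteins that syndecans bind, Fn1, the fibronectin gene, had −1.10 ± 0.09, Thbs1, the thrombospondin gene, −0.71 ± 0.08 and Tnc, the tenascin-C gene, −0.58 ± 0.07; with the trend removed Fn1 (−0.48) and Thbs1 (−0.27) were called and Tnc (−0.03) was not. It is not stated whether counting used strand, and antisense genes overlap exons of Fn1, Thbs1, Tnc, Pdgfa, Actn1, Prkca, Sulf2, B4galt7, Fam20b, Slc35b3, Adam17 and Gpc5 and, among the members, of Sdc3 and Gpc1. The model at Gpc1, Ankmy1, held 0 to 10 counts per library. Ugdh, Glce, Nrp1 and Gpc2 share exon sequence with a gene model on their own strand.

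For the members other than Sdc1, the gene with the most similar profile was sought among 8885 other genes of at least 10 CPM on average, as the smallest root mean square difference of centred log2 CPM over the 6 libraries. Sdc3 was nearest to Mef2d (0.00839 log2 units), Sdc4 to Kpna2 (0.0106) and Sdc2 to Tmem204 (0.0129). Gpc4 was nearest to Pnn (0.0115), Gpc1 to Cap1 (0.0142) and Gpc3 to Mapk7 (0.0514). Gpc6 had no comparably close neighbour, the nearest being Slfn5 at 0.128. Likeness over 6 libraries in 2 groups is a description of these libraries.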

How the data were processed

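RNA sequencing counts of 6 mouse muscle stem cell libraries were used. The authors deposited 1 table of raw counts by gene symbol. Poly(A) RNA was used and the second cDNA strand carried dUTP, per the labels' protocols. The submitters' processing notes name FastQC, cutadapt, DESeq2 and GRCm38. Aligner, counting tool and strand setting: not given in the sources used here. Counts of 11 to 50 were more often even than odd (61.7 ± 0.388% even in controls, 65.3 ± 0.331% with EET), so the precision may be lower than the counts give; a fit on halved counts was run.

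Groups came from the sample titles. Genes were filtered with filterByExpr and tested with edgeR 4.0.16 in R 4.3.3 (TMM, robust glmQLFit, glmQLFTest, no block). Lengths (longest coding transcript) and GC content come from GENCODE M21, with 53365 rows matched by symbol. The trend was removed as an offset from a robust loess (span 0.3, degree 2) of each library's deviation on GC percent and log2 length over coding genes. Shares and ratios were compared by exact two-sided permutation. Alternatives were RLE scaling, library totals, other filters, DESeq2 1.42.0, limma-voom (limma 3.58.1), fits without robust estimation, with a replicate block and without each library. The pipeline was tested on simulated data with the same dispersion for every gene and no length or GC trend. The removal of such a trend was therefore not tested there. Members, lists and the length correction were chosen with earlier results of these data known. Named were the 8 members, Gpc2, Gpc5, up to 3 higher and 3 lower genes of smallest p in each list, list genes at 0 in every library and the nearest profile of each member, of which 1 is not reported here.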

Additional observations from a re-analysis of the deposited data

How the results depend on the processing

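Sdc3, Gpc4 and Gpc6 were lower under RLE scaling, library totals, both other filters, DESeq2, limma-voom, the fit without robust estimation, the replicate block, halved counts and each left-out library. Gpc4 and Gpc6 were also lower with the trend removed, and over all alternatives Gpc4 ranged from −0.45 to −0.33 and Gpc6 from −1.55 to −0.94. Leaving out 1 library gave −0.47 to −0.35 for Sdc3, 0.17 to 0.23 for Sdc4, −0.17 to −0.10 for Gpc1, −0.064 to 0.024 for Sdc1, −0.046 to 0.033 for Sdc2 and −0.11 to 0.10 for Gpc3, and 0 to 1 members higher. Without control 1 and EET 3 together Sdc1 was at 0.0074, Sdc2 at 0.03 and Gpc1 at −0.19 (called). Library totals as scaling gave Sdc4 0.13 (0 members higher) and Gpc1 −0.20 (called). The cause of these changes was not tested.

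With the length and GC trend removed, 2451 genes were higher (2349 with degree 1, added after the data were seen), 0 members were higher, and 19 list genes were lower (21 with degree 1). Sdc3 was at −0.12, Sdc4 at 0.0499 (0.0414 with degree 1), Sdc2 at 0.043 (0.0395) and Gpc1 at 0.0306 (0.0271), and of the list genes Prkca turned to 0.0736 (0.0368) and Tiam1 to 0.0435 (0.0156). Same-numbered libraries did not deviate together (correlations across genes −0.05 to 0.0089). With 3 libraries per group such correlations cannot decide whether the numbers pair the samples, and the labels do not say. The replicate block called 4238 genes higher and 4083 lower and Gpc1 lower (−0.14). The replicate block with the trend removed called 2552 genes higher, 21 list genes lower, 0 members higher and 3 lower, Sdc3 being called there (−0.12, adjusted p = 0.0367), with Sdc4 at 0.0497, Sdc2 at 0.0423, Gpc1 at 0.0302, Prkca at 0.0735 and Tiam1 at 0.0441.

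The share of Sdc1 in syndecan mRNA, at −0.549 points with EET, was higher by 1.31 points with median mRNA lengths and by 0.292 points without division by length; that of Sdc2 was higher by 0.525 and 0.321 points, and ranged from −0.328 to 0.0819 points when 1 library was left out. Median lengths give Sdc3 only 659 bp, against 4973 bp for its longest coding mRNA, since short coding models count. These small shares therefore follow the length chosen, and the sizes of the Sdc3 and Sdc4 shares depend on it as well. Gpc6 (91 to 430 counts per library) and Gpc3 (266 to 400) are the members whose values depth limits most.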
